A study of Mus musculus with 6 samples.

Results

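Fatty acid desaturases and elongases were examined by RNA-seq in whole ovaries of wild-type mice and of mice that carry a truncating mutation of Bnc1, which encodes the transcription factor basonuclin 1. The 10 genes were chosen by symbol (Scd1, Scd2, Fads1, Fads2, Elovl1, Elovl2, Elovl4, Elovl5, Elovl6 and Elovl7), and all 10 were found among the 44788 genes of the count table. The groups were 3 Bnc1+/+ ovary samples (replicates 1, 4 and 7) and 3 Bnc1tr/tr ovary samples (replicates 1, 2 and 3), all from C57BL/6 J mice 8 weeks old. Bnc1tr/tr mice are homozygous for a frameshift deletion in exon 4, present in every cell of the body, and were bred from heterozygous parents. The labels do not say whether a sample is 1 ovary, 1 mouse or a pool, so the p values measure the spread between these samples. The stage of the estrous cycle is not given in the sources used here.

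Newly made palmitate is lengthened and desaturated at the endoplasmic reticulum. Stearoyl-CoA desaturases (Scd genes) place the first double bond in palmitoyl- and stearoyl-CoA and so make monounsaturated fatty acids such as oleate. Front-end desaturases (Fads1 and Fads2) add double bonds to the essential fatty acids, alternating with elongases (Elovl genes) that add carbons from malonyl-CoA, and the products include arachidonate and docosahexaenoate, which are built into membrane phospholipids and, in the ovary, feed prostaglandin synthesis. Transcription of many of these genes is known to respond to the sterol regulatory element binding proteins (SREBPs) and liver X receptors.

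Of the 10 genes, 4 fell in Bnc1tr/tr ovaries and 0 rose. Elovl5 fell 2.54-fold, Elovl6 fell 2.23-fold, Scd2 fell 1.78-fold and Fads1 fell 1.57-fold, each past the threshold of 0.05 by the quasi-likelihood test of edgeR, adjusted after Benjamini and Hochberg over the 19423 genes tested (the edgeR adjusted p below). In the same test 7.06% of all genes were called, 4.19% as lower (813 genes) and 2.88% as higher (559 genes) in Bnc1tr/tr ovaries. With scaling by library size only these were 616 lower and 1112 higher, and without Bnc1+/+ replicate 4 they were 226 and 94. By the unadjusted edgeR p, 6 of the 10 genes were under 0.05, all of them lower, against 24.2% of all genes in either direction. For 6 of the 10 genes every Bnc1tr/tr ovary lay below every Bnc1+/+ ovary, which was so for 15.8% of all genes tested, and for 0 of the 10 genes every Bnc1tr/tr ovary lay above, against 15% of all genes. The median log2 fold change was -0.42 over the 10 genes and 0.018 over all genes tested. Without any 1 of the 6 ovaries, and with other scalings, filters and tools, the same 4 genes passed the threshold in all 13 alternatives.

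The total of counted reads per ovary lay between 28123709 and 34406296 in Bnc1+/+ and between 25247770 and 27315341 in Bnc1tr/tr. Levels are given as CPM (TMM-normalized counts per unit of library size). Granulosa cell, oocyte and stromal markers were detected in every ovary, as the tissue label requires. The ribosomal RNA gene Rn18s-rs5 took 3.47% of counts in Bnc1+/+ replicate 1 and between 0.463% and 1.37% in the other ovaries, and the same 4 of the 10 genes were called without that ovary. Some libraries stood apart in markers of neighbouring tissue. The summed level of 12 adipocyte markers was 520 and 352 CPM in Bnc1tr/tr replicates 1 and 2, 48.8 CPM in Bnc1tr/tr replicate 3, and between 22.3 and 134 CPM in Bnc1+/+ ovaries. The summed level of 10 oviduct markers was 572 CPM in Bnc1tr/tr replicate 3, 170 CPM in Bnc1+/+ replicate 1 and between 52.7 and 55.7 CPM in the other ovaries. Of 9 corpus luteum markers, 8 fell, and of 6 endothelial markers, 4 fell, with no overlap of the summed levels between the genotypes. Of all genes tested, 4.19% were called lower. Bnc1 itself, counted over the whole gene, was at 13.9, 13.4 and 13.1 CPM in Bnc1+/+ ovaries, against 18.7, 13.7 and 11.5 CPM in Bnc1tr/tr, which does not check the deletion.

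The upstream sequences of the elongases were read from RefSeq promoter windows of the GRCm38.p6 build. A window was found for 7 of the 10 genes, and none for Scd1, Scd2 or Fads1. The sequences of 3 elongases are shown because Elovl5 and Elovl6 carry the largest falls and Elovl1, an abundant elongase, did not pass the test. Each runs 5′ to 3′ on the plus strand and stops before the annotated start of transcription, and capitals mark matches to CCAAT, the NF-Y box, or to GGGCGG, the GC box, on either strand.
Elovl5, chr9:77917115-77917363: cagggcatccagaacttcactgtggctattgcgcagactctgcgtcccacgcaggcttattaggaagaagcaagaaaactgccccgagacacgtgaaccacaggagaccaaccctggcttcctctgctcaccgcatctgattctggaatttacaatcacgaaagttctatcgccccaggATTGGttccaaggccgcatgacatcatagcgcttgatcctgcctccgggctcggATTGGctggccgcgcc
Elovl6, chr3:129532136-129532354: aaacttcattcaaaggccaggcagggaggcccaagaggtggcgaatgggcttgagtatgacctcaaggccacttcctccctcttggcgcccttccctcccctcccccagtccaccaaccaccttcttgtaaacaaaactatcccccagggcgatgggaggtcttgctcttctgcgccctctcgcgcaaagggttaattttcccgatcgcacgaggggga
Elovl1, chr4:118427843-118428092: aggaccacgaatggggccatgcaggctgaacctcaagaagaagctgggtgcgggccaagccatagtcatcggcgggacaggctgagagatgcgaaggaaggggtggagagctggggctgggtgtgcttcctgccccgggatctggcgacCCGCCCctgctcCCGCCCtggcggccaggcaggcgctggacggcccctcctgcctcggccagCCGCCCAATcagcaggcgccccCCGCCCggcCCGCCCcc

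The Elovl5 sequence held 2 CCAAT boxes, both on the minus strand, which begin 71 and 17 bases before the RefSeq start, and no GC box. The Elovl6 sequence held neither motif. The first Elovl1 window held 5 GC boxes and 1 CCAAT box, which overlaps a GC box by shared letters. Over the 250 bases before the start, a CCAAT box was found in 33.8% and a GC box in 32.7% of the 32851 RefSeq windows, and in 2 and 6 of the 9 windows of these genes. The 9 windows belong to 7 genes, and both windows of Elovl1 are among the 6 with a GC box. The sterol regulatory element TCACNCCAC was found in 1.05% of all windows and in 0 of the 9 windows of these genes. The consensus direct repeats DR4 of liver X receptors and DR1 of PPARs were found in 0.0152% and 0.0335% of all windows and in 0 of the 9. Both strands were searched for each motif. No match means only that these letters are not in this window.

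**Figure D1:**
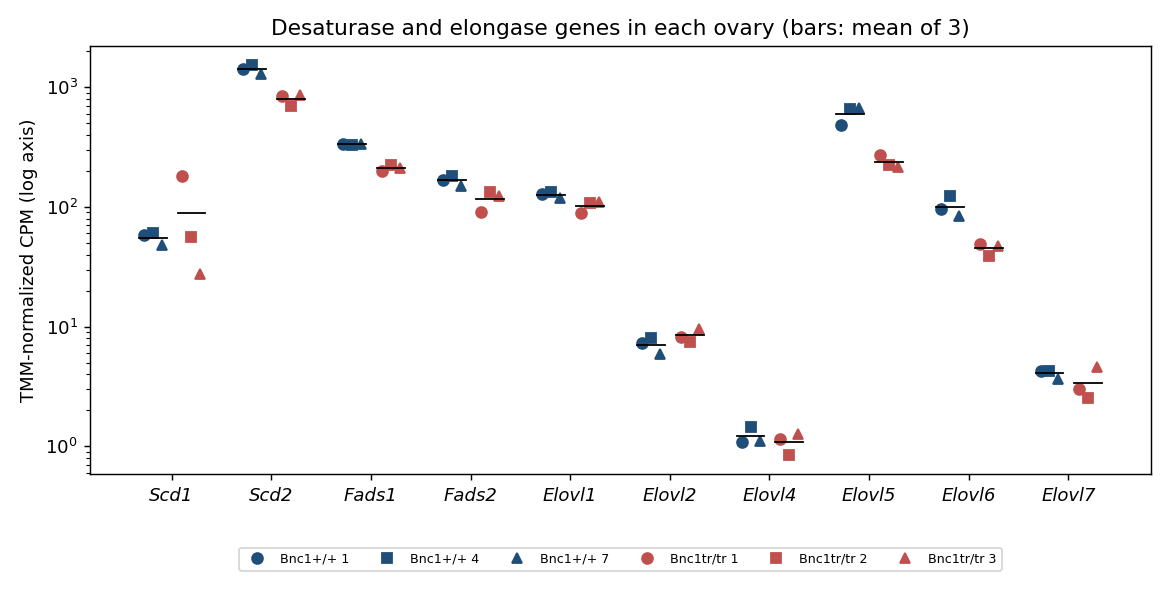
TMM-normalized CPM (log axis) of the 10 genes, 1 point per ovary, with blue for Bnc1+/+, red for Bnc1tr/tr and a bar for the mean of 3 ovaries. The groups are apart and lower in Bnc1tr/tr for Scd2, Fads1, Fads2, Elovl1, Elovl5 and Elovl6, while the 3 red points of Scd1 span 27.5 to 182 CPM.

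Scd2 was the most abundant of the 10 genes. It encodes the stearoyl-CoA desaturase that predominates in many mouse tissues outside the liver, and lies on the plus strand of chromosome 19 from 44293674 to 44306864 (GRCm38, GENCODE M21). Its level was 1428, 1525 and 1302 CPM in Bnc1+/+ replicates 1, 4 and 7 and 839, 693 and 855 CPM in Bnc1tr/tr replicates 1, 2 and 3. The lowest wild-type ovary was well above the highest mutant ovary. From 1418 ± 112 to 796 ± 89.4 CPM (SD, n = 3 each), the log2 fold change of Scd2 was -0.83 (standard error 0.12, edgeR adjusted p = 0.0072).

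Scd1, the isoform known for its high level in liver and fat, lies on the minus strand of the same chromosome from 44394455 to 44407879. Its level was 58.0, 60.2 and 48.3 CPM in Bnc1+/+ ovaries and 182, 55.6 and 27.5 CPM in Bnc1tr/tr replicates 1, 2 and 3. Bnc1tr/tr replicate 1 was thus the highest and replicate 3 the lowest of all 6 ovaries. The log2 fold change of Scd1 was 0.67 with a 95% interval from -0.68 to 2.02 (edgeR adjusted p = 0.53), and it was -0.42 without Bnc1tr/tr replicate 1 (adjusted p = 0.4). A change of Scd1 was not detectable with this spread.

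The adipocyte markers were also highest in Bnc1tr/tr replicate 1, for 7 of 12 markers. Adipoq, the fat cell hormone adiponectin, was at 6.13, 0.574 and 10.1 CPM in Bnc1+/+ ovaries, against 51.4, 30.8 and 2.43 CPM in Bnc1tr/tr. The lipid droplet gene Cidec was at 41.2, 23.1 and 1.30 CPM in Bnc1tr/tr replicates 1, 2 and 3 and at most 8.66 CPM in Bnc1+/+ ovaries, and the secreted protease Cfd at 119, 122 and 9.38 CPM and at most 45.8 CPM. Plin1, which coats lipid droplets, rose from 10.4 ± 1.99 to 25.2 ± 10.5 CPM (SD, n = 3 each, edgeR adjusted p = 0.044), the only call of that list, and the brown fat gene Ucp1 had at most 1 count in any ovary. Scd1 in Bnc1tr/tr replicate 2, with 352 CPM of adipocyte markers, was within the wild-type range. The part of fat in the Scd1 values was not tested.

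**Figure D2:**
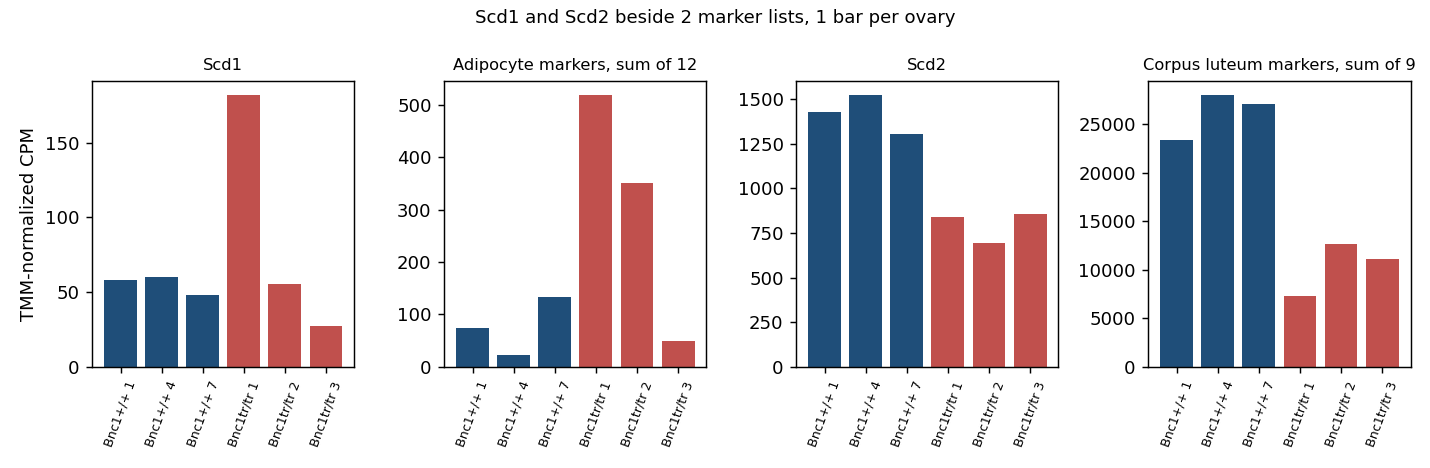
TMM-normalized CPM of Scd1, of 12 adipocyte markers summed, of Scd2 and of 9 corpus luteum markers summed, 1 bar per ovary, with blue for Bnc1+/+ and red for Bnc1tr/tr. Scd1 and the adipocyte sum are both highest in Bnc1tr/tr replicate 1 (182 and 520 CPM), whereas Scd2 and the luteal sum are lower in all 3 Bnc1tr/tr ovaries.

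Reads of Scd1 made up 3.90%, 3.80% and 3.58% of the Scd1 and Scd2 counts in Bnc1+/+ ovaries, and 17.8%, 7.43% and 3.11% in Bnc1tr/tr replicates 1, 2 and 3. The mean difference was 5.70 percentage points (exact two-sided permutation test, p = 0.4, where 0.1 is the smallest p that 3 against 3 allows). The paralogs share 145 of the 4888 stretches of 50 bases in Scd1 transcripts (2.97%) and of the 5461 in Scd2 transcripts (2.655%). Scd2 was far more abundant, with a mean of 1418 CPM in Bnc1+/+ ovaries against 55.5 CPM for Scd1. Even a small part of the Scd2 reads placed on Scd1 could therefore weigh on the Scd1 counts and share, which was not tested. The neighbouring paralogs Scd3 and Scd4 were low, at 2.26 ± 0.113 and 1.75 ± 0.191 CPM in Bnc1+/+ and 1.39 ± 0.202 and 1.29 ± 0.234 CPM in Bnc1tr/tr ovaries (SD, n = 3 each), and neither passed the test.

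Fads1 encodes the delta-5 desaturase, which makes arachidonate from dihomo-gamma-linolenate. It lies on the plus strand of chromosome 19 from 10182888 to 10196877. Its level was 336, 330 and 336 CPM in Bnc1+/+ ovaries, against 201, 224 and 212 CPM in Bnc1tr/tr, without overlap. The log2 fold change of Fads1 was -0.65 (standard error 0.079, edgeR adjusted p = 0.0048).

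Fads2 encodes the delta-6 desaturase, the first step of the same route, and lies on the minus strand from 10062765 to 10101746. Its level was 169, 180 and 150 CPM in Bnc1+/+ ovaries, against 90.5, 132 and 124 CPM in Bnc1tr/tr. The groups did not overlap, but Fads2 did not pass the threshold (log2 fold change -0.53, 95% interval -0.87 to -0.18, edgeR adjusted p = 0.076). DESeq2 called it (adjusted p = 0.013) and the other 12 alternatives did not, with adjusted p values up to 0.25.

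Fads3, the third gene of this cluster (start 10041569, end 10060110), fell from 55.4 ± 2.02 to 33.0 ± 3.10 CPM (SD, n = 3 each, edgeR adjusted p = 0.0054). The share of Fads1 in the Fads1 and Fads2 counts was 66.5%, 64.7% and 69.2% in Bnc1+/+ ovaries, against 68.9%, 62.9% and 63.2% in Bnc1tr/tr, a mean difference of -1.78 percentage points (exact two-sided permutation test, p = 0.5). Fads1 and Fads2 shared no 50-base stretch of transcript, and Fads2 shared 5 with Fads3.

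Elovl5 encodes the elongase of polyunsaturated fatty acids that acts between the delta-6 and delta-5 desaturases, and lies on the plus strand of chromosome 9 from 77917364 to 77984519. Its level was 481, 655 and 673 CPM in Bnc1+/+ ovaries, against 271, 224 and 217 CPM in Bnc1tr/tr. The lowest wild-type ovary, replicate 1, still exceeded the highest mutant ovary. The log2 fold change of Elovl5 was -1.35 (standard error 0.15, edgeR adjusted p = 0.0039), the largest fall of the 10 genes.

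Elovl6 lengthens palmitate to stearate and so supplies the substrate of stearoyl-CoA desaturases. It lies on the plus strand of chromosome 3 from 129532355 to 129638495, where the annotation also places Gm43072 on the same strand and Gm35986 on the other. Elovl6 was at 95.8, 123 and 83.3 CPM in Bnc1+/+ ovaries, against 49.5, 38.9 and 47.2 CPM in Bnc1tr/tr, again without overlap. Its log2 fold change was -1.16 (standard error 0.16, edgeR adjusted p = 0.0071).

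Elovl1 acts on saturated and monounsaturated very long chains for sphingolipids, and lies on chromosome 4 from 118428093 to 118432953, overlapping Cdc20 on the opposite strand. It was at 127, 134 and 119 CPM in Bnc1+/+ ovaries, against 88.6, 108 and 109 CPM in Bnc1tr/tr. The groups did not overlap, yet the log2 fold change of -0.32 (95% interval -0.56 to -0.078) did not pass in edgeR's quasi-likelihood test (adjusted p = 0.11).

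The other elongases were scarce, and the genotypes overlapped for each of them. Elovl2, which lengthens the 20- and 22-carbon polyunsaturates, was at 7.32, 7.98 and 5.86 CPM in Bnc1+/+ ovaries, against 8.25, 7.47 and 9.59 CPM in Bnc1tr/tr. Its log2 fold change was 0.26, the only positive value among the elongases (95% interval -0.14 to 0.66, edgeR adjusted p = 0.41). Elovl7 had between 66 and 140 counts per ovary, with a log2 fold change of -0.26 (95% interval -0.85 to 0.32). Elovl4, which makes the longest chains of retina, skin and sperm, had between 22 and 48 counts per ovary, with a log2 fold change of -0.16 (95% interval -0.80 to 0.48). The intervals of Elovl7 and Elovl4 reach below the log2 fold change of Fads1, so a fall of that size is within their counting and replicate error, while that of Elovl2 does not reach it. Elovl3, which is not 1 of the 10, had at most 3 counts in any ovary and was not tested.

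Levels of different genes were compared per length, as RPKM (CPM divided by the kilobases of exon in GENCODE M21). In Bnc1+/+ ovaries the order was Scd2 (260 ± 20.5 RPKM), Elovl5 (171 ± 30.0), Fads1 (69.4 ± 0.665), Fads2 (50.5 ± 4.72), Elovl1 (46.6 ± 2.79), Elovl6 (15.7 ± 3.20), Scd1 (11.3 ± 1.29), Elovl2 (1.78 ± 0.273), Elovl7 (1.01 ± 0.0860) and Elovl4 (0.400 ± 0.0687; SD, n = 3). Only Fads2 and Elovl1 overlapped among neighbours in this order. In Bnc1tr/tr ovaries Scd2 (146 ± 16.4 RPKM), Elovl5 (67.3 ± 8.30) and Fads1 (44.1 ± 2.41) again led, followed by Elovl1 (37.3 ± 4.20) and Fads2 (35.0 ± 6.68), which overlapped. Scd1 (18.1 ± 16.8 RPKM) overlapped both Fads2 above it and Elovl6 (7.03 ± 0.867) below it.

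Within the summed RPKM of the 6 elongases, Elovl5 held 67.8%, 72.1% and 76.3% in Bnc1+/+ ovaries, against 63.9%, 56.7% and 54.6% in Bnc1tr/tr. The share of Elovl1 was 23.2%, 19.1% and 17.5% in Bnc1+/+ ovaries, against 27.0%, 35.4% and 35.4% in Bnc1tr/tr. Both shares were separated between the genotypes, in opposite directions, and were chosen for description after their values were seen. They are parts of the same sum and hold most of it, so a lower Elovl5 share brings a higher Elovl1 share. The level of Elovl1 itself was lower in every Bnc1tr/tr ovary than in every Bnc1+/+ ovary. The RPKM summed over all 10 genes amounted to 627 ± 40.2 for Bnc1+/+ and 358 ± 21.8 for Bnc1tr/tr (SD, n = 3), and Scd2 held 41.4 ± 2.53% and 40.6 ± 3.12% of it.

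**Figure D3:**
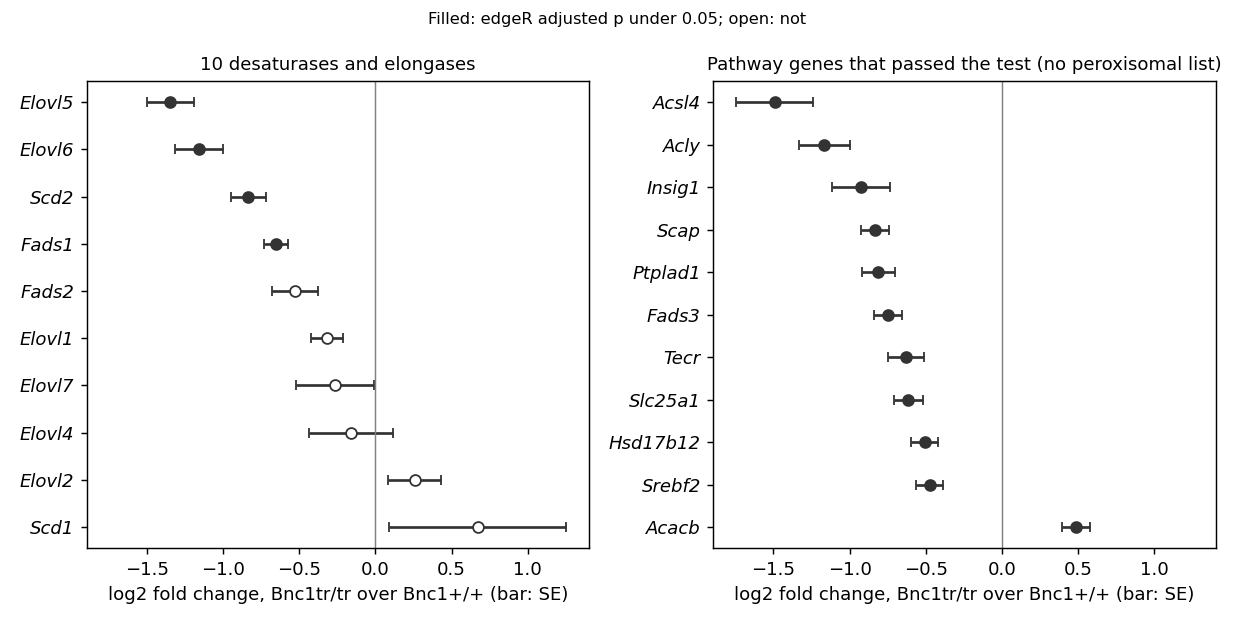
Log2 fold change of Bnc1tr/tr over Bnc1+/+ ovaries with its standard error for the 10 genes (left) and for 11 pathway genes that passed the test, without the peroxisomal list (right), with filled points for an edgeR adjusted p under 0.05. On the left, 4 filled points lie between -1.35 and -0.65, and on the right Acacb alone lies above 0.

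The other genes of the route were taken from 7 lists written by hand, with 66 genes, of which 64 were tested. Of these, 13 fell and 1 rose, where 4.19% of all genes tested were called lower and 2.88% higher, and 44 had a log2 fold change below 0, against 47.4% of all genes. The 13 became 4 without Bnc1+/+ replicate 4 and 7 without Bnc1+/+ replicate 7 or Bnc1tr/tr replicate 3, and the 1 became 0 without any 1 of the Bnc1+/+ ovaries or Bnc1tr/tr replicate 3. The median log2 fold change was -0.20. Each elongation cycle has 3 further steps after the condensation by an Elovl enzyme. Hsd17b12, the ketoreductase, fell from 87.3 ± 7.77 to 61.4 ± 2.0 CPM, Ptplad1 (now Hacd3), a dehydratase, from 338 ± 31.8 to 193 ± 19.5 CPM, and Tecr, the final reductase, from 432 ± 61.4 to 280 ± 16.5 CPM (SD, n = 3 each). Their adjusted p values in edgeR's quasi-likelihood test were 0.018, 0.0067 and 0.022. The other 3 dehydratase genes did not pass. Tecr lost its call when any 1 of 5 ovaries was left out, and Hsd17b12 when any 1 of 3 was.

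Malonyl-CoA, the carbon donor of elongation, is made by the acetyl-CoA carboxylases. Acacb, the mitochondrial form, was the gene that rose, from 68.1 ± 2.81 to 95.5 ± 8.93 CPM (SD, n = 3 each, edgeR adjusted p = 0.023), and it lost the call when any 1 of 4 ovaries was left out. Acaca, the cytosolic form, had a log2 fold change of -0.37 and Fasn, the fatty acid synthase, of -0.11, neither past the threshold (edgeR adjusted p = 0.13 and 0.73). Acly, which makes cytosolic acetyl-CoA from citrate, decreased from 989 ± 162 to 441 ± 76.4 CPM, and the citrate carrier Slc25a1 went down from 141 ± 10.5 to 92.4 ± 7.64 CPM (SD, n = 3 each, edgeR adjusted p = 0.0086 and 0.011). Each of them lost the call without Bnc1+/+ replicate 4.

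Of 14 regulators, 3 fell and 0 rose, where 4.19% of all genes tested were called lower and 2.88% higher. Scap, the escort protein of the SREBPs, fell from 819 ± 46.1 to 460 ± 28.1 CPM, Insig1, which retains it in the endoplasmic reticulum, from 92.5 ± 23.0 to 48.6 ± 7.59 CPM, and Srebf2 from 242 ± 21.1 to 175 ± 6.09 CPM (SD, n = 3 each, edgeR adjusted p = 0.0037, 0.032 and 0.024). Srebf1, which encodes the SREBP most tied to fatty acid genes, was at 107, 109 and 115 CPM in Bnc1+/+ ovaries, against 95.3, 94.3 and 93.5 CPM in Bnc1tr/tr. These groups did not overlap, but the log2 fold change of -0.23 did not pass (edgeR adjusted p = 0.11). Nr1h3, the liver X receptor alpha gene, had a log2 fold change of 0.17 (edgeR adjusted p = 0.68), which was -0.089 without Bnc1tr/tr replicate 2. Srebf2 and Insig1 each lost the call under 5 of the 13 alternatives, and Scap under 0.

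Among 12 acyl-CoA synthetases and lysophospholipid acyltransferases, which activate fatty acids and place them in phospholipids, 1 fell and 0 rose. With 4.19% of all genes tested called lower, 1 call of 12 says little about this list. Acsl4, the synthetase that prefers arachidonate, was at 173, 188 and 188 CPM in Bnc1+/+ ovaries, against 39.1, 86.1 and 70.2 CPM in Bnc1tr/tr. Its log2 fold change was -1.49 (standard error 0.25, edgeR adjusted p = 0.015), and the call was lost without Bnc1+/+ replicate 4 or 7. Acox3, a peroxisomal enzyme of fatty acid shortening, fell from 111 ± 16.2 to 68.8 ± 5.84 CPM (SD, n = 3 each, edgeR adjusted p = 0.019), and it lost the call under 3 of the 13 alternatives. None of the 5 tested electron donors of the desaturases passed, and of 6 tested desaturase and elongase genes outside the 10, only Fads3 did. Fads6 was at 180, 174 and 217 CPM in Bnc1+/+ ovaries, against 72.5, 134 and 112 CPM in Bnc1tr/tr, just short of the threshold (edgeR adjusted p = 0.056).

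Markers of luteal tissue also differed between the genotypes. The summed level of the 9 corpus luteum markers was 23355, 28072 and 27151 CPM in Bnc1+/+ ovaries, against 7340, 12697 and 11150 CPM in Bnc1tr/tr. Lhcgr, the luteinizing hormone receptor, fell from 691 ± 132 to 85.9 ± 6.90 CPM and Prlr, the prolactin receptor, from 346 ± 16.0 to 126 ± 42.9 CPM (SD, n = 3 each, edgeR adjusted p = 2.4e-04 and 0.013). Akr1c18, a progesterone-degrading enzyme, overlapped between the genotypes (12.2, 49.2 and 103 CPM against 6.72, 71.8 and 17.4 CPM). Within the mutant ovaries the order was not shared. The luteal sum was lowest in replicate 1, as were 6 of the 9 markers and Fads1 and Fads2, but Lhcgr was highest there (92.8, 86.0 and 79.0 CPM in replicates 1, 2 and 3), as were the luteal marker Sfrp4 (387, 243 and 168 CPM), Elovl5 and Elovl6. Scd2 was lowest in replicate 2. Of 13 oocyte markers, 3 rose and 0 fell, and of 10 granulosa cell markers, 1 rose and 0 fell, while 5 of those 10 had a log2 fold change below 0. The summed levels of both lists overlapped between the genotypes. Of all genes tested, 2.88% were called higher and 4.19% lower, so 1 call of 10 says little about the granulosa cell list. The oocyte factor Gdf9 rose 1.72-fold, Bmp15 rose 1.90-fold and Oosp1 rose 2.06-fold, and Amh, made by granulosa cells of growing follicles, rose 2.09-fold (edgeR adjusted p = 0.046, 0.020, 0.026 and 0.029). Of 8 theca and stroma markers 0 were called. Their summed level was 1682 to 1944 CPM in Bnc1+/+ ovaries and 1971 to 2415 CPM in Bnc1tr/tr. The lack of overlap rests on Cyp17a1, at 235 CPM in Bnc1tr/tr replicate 1 and 3.66 and 5.46 CPM in replicates 2 and 3. In Bnc1+/+ ovaries Cyp17a1 was at 8.62, 124 and 21.6 CPM, and without this gene the sums of the genotypes overlap. In whole ovaries, fewer cells of a type and less RNA per cell cannot be told apart, and the part of luteal, endothelial, stromal, oocyte or granulosa cell content in the falls of Elovl5, Elovl6, Scd2 and Fads1 was not tested.

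Elovl5 and Fads1 had the smallest adjusted p values, and the genes of most alike pattern were sought for them among 16752 genes with a mean of at least 1 CPM, by the root mean square difference of centred log2 CPM over the 6 ovaries. For Elovl5 they were Hlx (0.0897), Cyb561d1 (0.0963) and Ccdc126 (0.116). For Fads1 they included Ptprs (0.0338) and Dusp3 (0.0419).

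**Figure D4:**
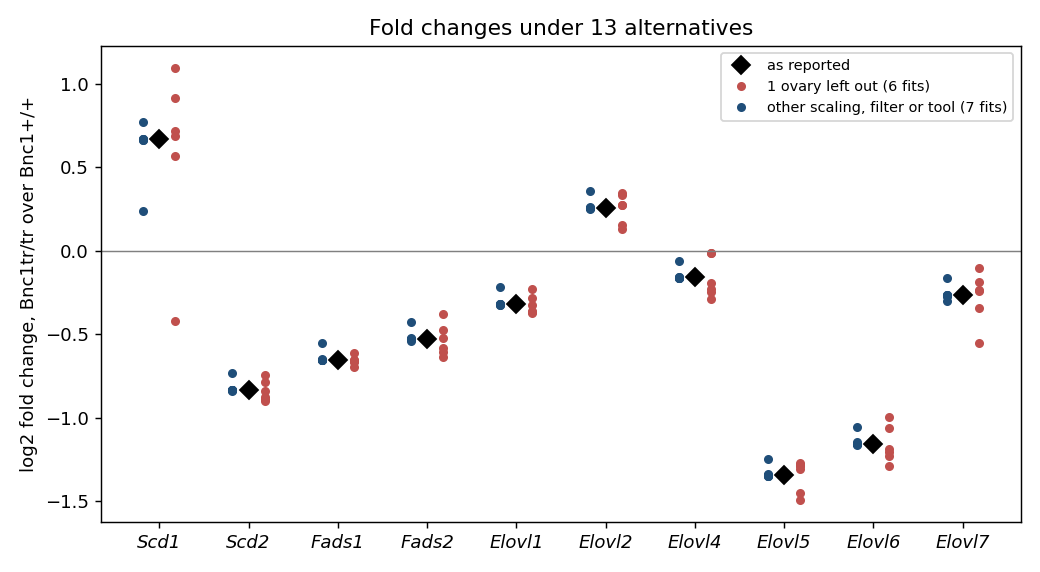
Log2 fold change of Bnc1tr/tr over Bnc1+/+ ovaries for each of the 10 genes, as reported (black), with 1 ovary left out (red, 6 fits) and with another scaling, filter or tool (blue, 7 fits). All points of Scd2, Fads1, Elovl5 and Elovl6 are below -0.55, and 1 red point of Scd1, without Bnc1tr/tr replicate 1, is at -0.42 while the others are above 0.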

How the data were processed

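Total RNA of 6 ovary samples was extracted with TRIzol and sequenced on an Ion Proton instrument in single-end mode. Raw counts were deposited, whole numbers of reads per gene symbol without normalization. The submitters' processing notes list the builds mm10 and Sscrofa10.2 without their roles, and the aligner, counting tool, annotation and use of strand are not given in the sources used here. Reads from overlapping genes may therefore be mixed. Genes were filtered with filterByExpr (minimum count 10), scaled with TMM and compared between genotypes with edgeR 4.0.16 (glmQLFit, glmQLFTest, R 4.3.3) in two-sided tests adjusted after Benjamini and Hochberg over 19423 genes and a threshold of 0.05. Standard errors are the log2 fold change over the square root of its F statistic, intervals are 95% intervals from these, and CPM use the library sizes after the filter. Alternatives were DESeq2 1.42.0, limma-voom 3.58.1, a robust fit, other scalings and filters, and leaving out each ovary. The code was tested on simulated data. Replicates of a genotype differed beyond counting error (chi-square per degree of freedom from 17.0 to 64.4).

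The 10 genes and all lists were chosen with earlier results of these data known. Named genes were the 10, every pathway gene past the threshold, 6 regulators and enzymes fixed by name, the first 4 adipocyte and the first 3 luteal markers, Bnc1, and the 3 genes most alike to each of the 2 members with the smallest adjusted p. Scd3, Scd4, Fads6, Elovl3, Ucp1, Sfrp4, Rn18s-rs5 and the called oocyte and granulosa cell markers were named after their values were seen. Results of some genes under these rules are not reported here. Older symbols, such as Ptplad1 for Hacd3, were matched by hand, and Cyb5 for Cyb5a after a first look.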

Additional observations from a re-analysis of the deposited data

How the results depend on the processing

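No paired analysis was possible because the genotypes share only replicate number 1 in the labels. The mice were compared with littermates per the study's methods, but the labels do not say which ovaries share a litter, so the tests take no account of litter. The counts of genes that fell (4) and rose (0) among the 10 did not move under 12 of the 13 alternatives, and DESeq2 called 5 lower. The number of pathway genes called lower ranged from 4 to 14 when 1 ovary was left out (4 without Bnc1+/+ replicate 4, 7 without Bnc1+/+ replicate 7, 7 without Bnc1tr/tr replicate 3), and the number called higher from 0 to 2. With library size only, no filter or DESeq2, 2 were called higher, and DESeq2 called 19 lower in place of 13. Over all genes, 813 were lower and 559 higher, DESeq2 called 1340 and 1080, library size only called 616 and 1112 (35.6% lower in place of 59.3%, with the median log2 fold change at 0.12 in place of 0.018), and leaving out 1 ovary gave 226 to 662 and 94 to 620. The log2 fold change changed sign for Scd1 (-0.42) and Bnc1 (-0.10) without Bnc1tr/tr replicate 1 and for Nr1h3 (-0.089) without Bnc1tr/tr replicate 2, and the cause was not tested. Their highest values with 1 ovary left out were 1.10, 0.26 and 0.38. When 1 ovary was left out, the difference in the Scd1 share ranged from 1.51 to 8.87 percentage points and that in the Fads1 share from -3.76 to -0.576. As log2 ratios these differences were 1.08 and -0.11. Counts were lowest for Elovl4, at 22 to 48 per ovary, and the part of depth in its interval was not tested.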
